A study of Mus musculus with 14 samples.

Results

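The probes for mmu-miR-451, mmu-miR-16 and mmu-miR-15a were taken by name from a NanoString nCounter mouse miRNA panel, which counts single miRNA molecules through colored barcodes without sequencing. They are 3 of the 599 miRNA probes and 626 probes of all kinds in the table, and all 3 passed the filter of a mean of at least 10 counts that left 176 miRNA probes for testing. They were chosen as miRNAs of red blood cells and of the miR-15a/16 cluster, which are read as signs of haemolysis in plasma. The questions were how much they vary between samples of a group, whether they vary together, and whether they differ after whole-body irradiation (WBIR).

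The samples were extracellular vesicles (EVs) pelleted from mouse plasma by differential centrifugation, 4 from sham mice, 5 collected 3 days after 2 Gy and 5 collected 3 days after 9 Gy. By the methods, the mice were female C57BL/6J, aged 6 to 8 weeks, irradiated with a cesium source, and the blood was drawn by cardiac puncture into citrate. No allele or drug separates the groups, and the sham mice were not irradiated. The labels do not say whether a sample is 1 mouse or a pool of mice. Each p-value therefore sets a difference or correlation against the spread between these samples, which may not be that between mice. A pellet of plasma EVs holds vesicles from many cells, and more vesicles from a source cannot be told apart from more miRNA in each vesicle.

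A miRNA guides the silencing of mRNAs that pair with its seed, the bases near its 5′ end. miR-451 is the dominant miRNA of red cells and their precursors, where it is made with miR-144 from a shared transcript and supports erythroid maturation. Its hairpin is too short for Dicer and is cut by Ago2 instead. miR-15a and miR-16 come from neighboring hairpins, share their seed and restrain genes of cell survival and of the cell cycle, Bcl2 and cyclins among them. miR-16 is abundant in blood cells of several kinds, including red cells, and both miR-451 and miR-16 enter plasma when red cells lyse.

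The mature sequences are shown because the seed separates the members into groups, with the seed (bases 2 to 8) in capitals. They are the RefSeq entries of assembly GRCm38.p6, and RNAs for all 7 of the 7 probes sought were found there. The probes carry no arm in their names, and the arm shown is the one that RefSeq gives the same number or the 5p arm.
mmu-miR-451 (Mir451a, chr11:78073186-78073207, plus strand): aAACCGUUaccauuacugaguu
mmu-miR-16 (Mir16-1, chr14:61631936-61631957, minus strand, and Mir16-2, chr3:69009918-69009939, plus strand): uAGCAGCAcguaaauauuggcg
mmu-miR-15a (Mir15a, chr14:61632075-61632096, minus strand): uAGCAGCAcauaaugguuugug
mmu-miR-15b (Mir15b, chr3:69009775-69009796, plus strand): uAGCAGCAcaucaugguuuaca
mmu-miR-195 (Mir195a, chr11:70235062-70235082, plus strand): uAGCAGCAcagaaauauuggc
mmu-miR-322 (Mir322, chrX:53054306-53054327, minus strand): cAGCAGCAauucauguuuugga
mmu-miR-497 (Mir497, chr11:70234730-70234751, plus strand): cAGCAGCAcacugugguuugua

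miR-16 and miR-15a shared the seed AGCAGCA with 4 further miRNAs of the panel, miR-15b, miR-195, miR-322 and miR-497, while miR-451 had the seed AACCGUU. miR-16 and miR-15a had the same base at 16 of 22 positions, and their first 9 bases were the same. In RefSeq, 54 bases lay between Mir16-1 and Mir15a and 66 between Mir15b and Mir16-2. The mature miR-16 is therefore the same RNA from both loci, and the probe cannot separate them. Mir144 and Mir451a lay 99 bases apart. The hairpins of Mir451a and Mir16-1 are printed with the mature miRNA in capitals, because their precursors are built differently.
Mir451a (chr11:78073170-78073241, plus strand): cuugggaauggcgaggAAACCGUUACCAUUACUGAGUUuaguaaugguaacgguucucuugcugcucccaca
Mir16-1 (chr14:61631880-61631972, minus strand): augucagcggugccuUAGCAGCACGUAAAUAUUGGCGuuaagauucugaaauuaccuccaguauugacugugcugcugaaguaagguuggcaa

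Per sample the miRNA probes summed to between 4781 and 6926 counts in sham, 8019 and 10455 after 2 Gy, and 11518 and 20150 after 9 Gy. The ligation positive controls, synthetic templates that report the tagging reaction, had geometric means of 136 to 634 counts in sham, 1935 to 3121 at 2 Gy and 2231 to 3463 at 9 Gy. These ranges did not overlap between sham and either dose, so ligation and the sham group cannot be told apart in any comparison against sham. The hybridisation controls overlapped in all groups (822 to 1177 counts). Negative control probes have no target and give the background. One of them, NEG_C, read 27 to 76 counts, and the remaining 7 read 1 to 18, with means of 7.64 in sham, 6.97 at 2 Gy and 7.57 at 9 Gy.

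Against this background the 3 miRNAs stood at different heights. miR-451 was above the highest of the 7 negative controls in 14 of 14 samples and above NEG_C in 7. miR-16 was above the 7 in 12 samples, including 2 of the 4 sham samples, and above NEG_C in 3. miR-15a was above the 7 in 9 samples, none of them sham, and above NEG_C in none. Of the miRNA counts of a sample, miR-451 took 0.113% to 2.70%, miR-16 took 0.146% to 0.706% and miR-15a took 0.0856% to 0.197%. Each probe has its own efficiency, so these shares do not rank the miRNAs in the vesicles.

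miR-451 had 48, 71, 53 and 25 counts in the sham samples. At 2 Gy it had 77, 152, 21, 149 and 252 counts, and at 9 Gy 100, 138, 32, 17 and 63 counts. The lowest sample of each irradiated group lay below every sham sample and the highest lay above every sham sample, so the groups overlapped fully. The exact 95% Poisson interval, which covers counting error only, was 9.90 to 27.2 for the 17 counts of 9 Gy replicate 4 and 116 to 163 for the 138 counts of 9 Gy replicate 2. Counting error was therefore far smaller than the difference between samples of the same dose.

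miR-16 had 19, 14, 15 and 9 counts in sham, 37, 46, 16, 60 and 66 counts at 2 Gy, and 44, 51, 23, 22 and 42 counts at 9 Gy. At 2 Gy only replicate 3 fell within the range of sham, and this is the sample with the lowest miR-451 of that dose. At 9 Gy no sample overlapped with sham, and the lowest were replicates 3 and 4, which also had the lowest miR-451.

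miR-15a had 8, 9, 9 and 6 counts in sham, 12, 16, 13, 17 and 8 counts at 2 Gy, and 14, 13, 15, 22 and 20 counts at 9 Gy. The 9 Gy samples did not overlap with sham, and at 2 Gy only replicate 5 did. That replicate had the lowest miR-15a and the highest miR-451 of its dose.

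**Figure D1:**
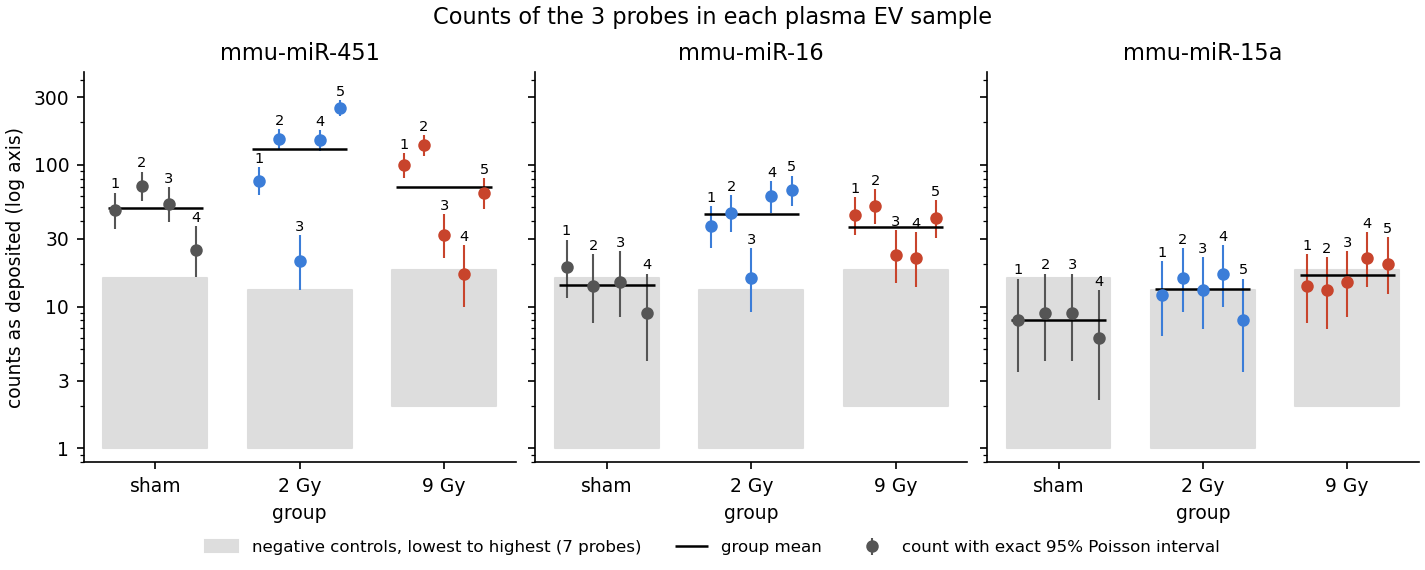
Counts as deposited (log axis) of mmu-miR-451, mmu-miR-16 and mmu-miR-15a in each sample, numbered by replicate, with exact 95% Poisson intervals for counting error, group means as black lines and the range of the 7 negative controls other than NEG_C in gray. miR-451 ran from 21 to 252 counts within the 2 Gy group, whereas miR-15a stayed between 6 and 22 counts in all 14 samples, close to the negative controls.

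The spread within a group was set against counting error. For miR-451 the mean and coefficient of variation were 49.3 ± 18.9 counts (SD, n = 4) and 38.5% in sham, 130.2 ± 87.2 counts (SD, n = 5) and 67.0% at 2 Gy, and 70.0 ± 49.6 counts (SD, n = 5) and 70.8% at 9 Gy. Counting alone would give 14.2%, 8.76% and 12.0%. The highest 2 Gy sample had 12.0 times the counts of the lowest, and the same ratio was 8.12 at 9 Gy and 2.84 in sham. Single samples set these ratios, which were 3.27 without 2 Gy replicate 3, 7.24 without 2 Gy replicate 5, 4.31 without 9 Gy replicate 4 and 1.48 without sham replicate 4. Leaving out any sample of an irradiated group kept the coefficient of variation at 45.7% or more, and without sham replicate 4 that of sham was 21.1%. A higher mean came with a larger variance, and the variance was 58.4 times the mean at 2 Gy, 35.1 times at 9 Gy and 7.29 times in sham.

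miR-16 had 14.3 ± 4.11 counts (SD, n = 4) in sham, 45.0 ± 19.8 (SD, n = 5) at 2 Gy and 36.4 ± 13.1 (SD, n = 5) at 9 Gy. Its coefficient of variation was 28.9% in sham, where counting error gives 26.5%, and 44.1% and 36.1% at 2 Gy and 9 Gy, where counting error gives 14.9% and 16.6%. Its spread exceeded counting error in the irradiated groups and was close to it in sham. miR-15a had 8.0 ± 1.41 counts (SD, n = 4) in sham, 13.2 ± 3.56 (SD, n = 5) at 2 Gy and 16.8 ± 3.96 (SD, n = 5) at 9 Gy. Its variance was 0.250, 0.962 and 0.935 times its mean, which is no more than counting error gives.

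Scaled counts are counts divided by each sample's library size, adjusted by the trimmed mean of M values (TMM). TMM sets the bulk of the panel equal between samples. Only 176 of the 599 miRNA probes it used had a mean of at least 10 counts, so much of that bulk lay near background. For scaled counts the biological coefficient of variation, which edgeR estimates as the spread beyond counting error within all groups, was 0.684 for miR-451. This was the second highest of the 176 tested probes. It was 0.356 for miR-16, which ranked 4. For miR-15a it was 0.00988, the lowest value of all, shared by many probes that were each given the averaged rank of 159. The median of all tested probes was 0.0953. Rank 1 was miR-155 (1.23) and rank 3 was miR-25 (0.383), which red cells also carry. The ranks are a description, since probes near background leave little room to estimate a spread. On the log2 scale the SD within groups was 1.18 for miR-451, 0.64 for miR-16 and 0.36 for miR-15a. With the median negative control subtracted it was 1.44, 0.95 and 0.93, so the gap between miR-16 and miR-15a depended on background.

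**Figure D2:**
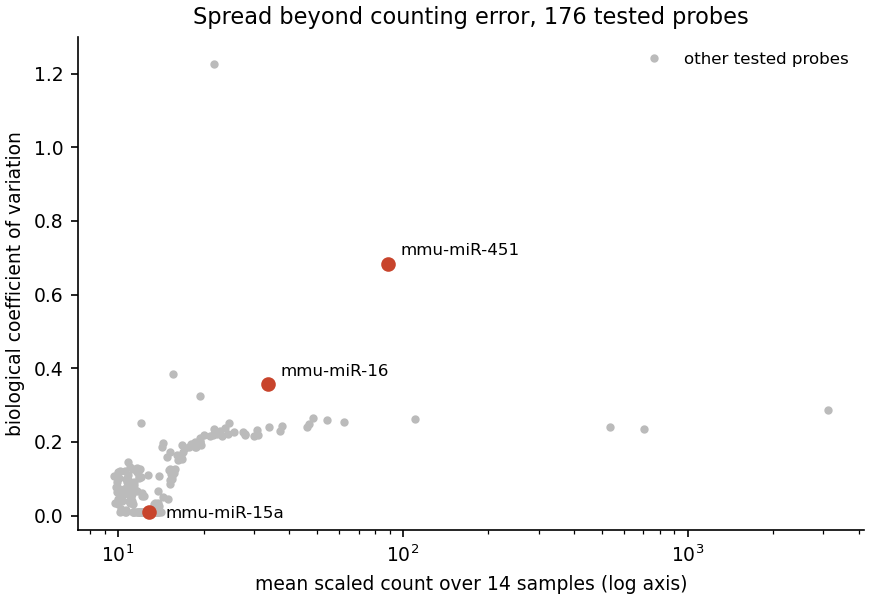
Biological coefficient of variation from edgeR against the mean scaled count over the 14 samples (log axis) for the 176 tested probes, with the 3 members in red. miR-451 (0.684) and miR-16 (0.356) lie above nearly all probes of similar count, and miR-15a (0.00988) lies at the lower edge.

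miR-451 and miR-16 were high and low in the same samples. With the group means removed, log2 scaled counts of the pair had a Pearson r of 0.949 over 14 samples (100000 permutations within groups, two-sided p 0.00038, adjusted 0.00228 over the 6 pairs examined), and Spearman's rho was 0.916 (permutation p 0.00038). Their deviations had the same sign in 12 of the 14 samples, and the exceptions were sham replicates 1 and 2. Without 2 Gy replicate 3 and 9 Gy replicate 4, which lay farthest from the median of miR-451, r was 0.880 (permutation p 0.00598). In the 10 irradiated samples alone it was 0.973, and leaving out any one sample gave 0.913 to 0.967. A change of 1 in miR-451 on the log2 scale went with a change of 0.51 in miR-16.

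No relation of miR-15a to either passed the test. Its r was -0.229 with miR-451 (permutation p 0.559, adjusted 0.890, rho -0.0681, permutation p 0.843) and -0.151 with miR-16 (permutation p 0.731, adjusted 0.890, rho -0.0549, permutation p 0.879). Without the 2 farthest samples named above, these were -0.126 and -0.0723. The sign of its deviation was that of miR-451 in 11 of 14 samples, a tally that includes counts at background. Once the median negative control was subtracted it was 6 of 14. Every sham value of miR-15a was then the floor of 1, so its sham signs came from the scaling factors alone and that tally is not read. Without subtraction the exceptions were 2 Gy replicate 5 and 9 Gy replicates 2 and 4, all among the 4 largest deviations of miR-451. Without 2 Gy replicate 5 both values turned positive, to 0.0411 and 0.129. The counts of miR-15a varied no more than counting error, which limits any relation they could show at this depth. With the group means kept, as a description, r was 0.479 between miR-16 and miR-15a and 0.0403 between miR-451 and miR-15a.

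Within groups, no relation of the 3 to the ligation controls passed the test. Their r was 0.0366 with miR-451 (permutation p 0.844, rho -0.0374, permutation p 0.886), 0.175 with miR-16 (permutation p 0.310, rho 0.147, permutation p 0.554) and -0.0299 with miR-15a (permutation p 0.890, rho 0.125, permutation p 0.675). The adjusted p was 0.890 for each. Without sham replicates 1 and 4, farthest on the ligation axis, r was -0.0125, 0.0965 and 0.163. Group means were removed here, so these values do not bear on the ligation difference between sham and irradiated samples.

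**Figure D3:**
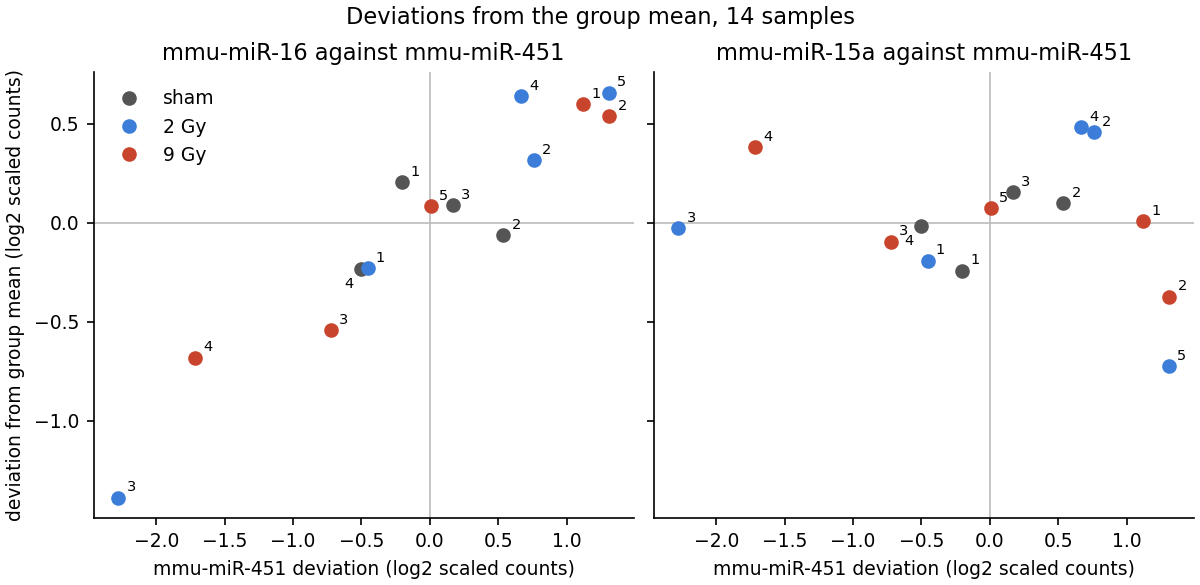
Deviation from the group mean in log2 scaled counts, with miR-451 on the x axis of both panels and miR-16 (left) or miR-15a (right) on the y axis, for 14 samples colored by group and numbered by replicate. The points of miR-16 rise along a line (r 0.949), from 2 Gy replicate 3 at the lower left to 2 Gy replicate 5 and 9 Gy replicate 2 at the upper right, and those of miR-15a do not (r -0.229).

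The tested probes most like each member were then listed over the same 14 samples, as a description, since all probes of a sample share its library and depth. For miR-451 the nearest of the 175 other probes were miR-16 (r 0.949), miR-486 (r 0.845, rho 0.842) and let-7g (r 0.838, rho 0.855). For miR-16 they were miR-451, miR-486 (r 0.896, rho 0.912) and let-7g (r 0.80, rho 0.833). miR-486, a red-cell miRNA made from the Ank1 locus, was thus next to both. The median r over the 175 other probes was 0.0335 for miR-451 and 0.0557 for miR-16, and 14 probes had an r over 0.5 with each. For miR-15a the nearest were miR-493 (r 0.731, rho 0.785), the viral probe mcmv-miR-m59-2 (r 0.616, rho 0.424) and miR-2146 (r 0.588, rho 0.407). The mean counts of these 3 were 10.6, 11.1 and 13.4, near the negative controls, and the mouse samples were not labelled as infected.

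miR-486 had 18, 9, 10 and 5 counts in sham, 14, 13, 5, 14 and 20 counts at 2 Gy, and 11, 24, 6, 7 and 14 counts at 9 Gy. Its lowest irradiated samples were again 2 Gy replicate 3 and 9 Gy replicates 3 and 4, though sham replicate 4 was as low, and its highest irradiated samples were 2 Gy replicate 5 and 9 Gy replicate 2. Only 5 of its 14 values exceeded the highest of the 7 negative controls. let-7g, a widely expressed let-7 member, had 10 to 30 counts and was above those controls in 11 samples.

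Other red-cell miRNAs were described from a list of 7, of which miR-486 and miR-25 reached a mean of 10 counts. miR-25, of the miR-106b cluster, had 10, 16, 16 and 11 counts in sham, 10, 22, 8, 20 and 23 counts at 2 Gy, and 21, 23, 9, 18 and 6 counts at 9 Gy. It was low in 2 Gy replicate 3 and 9 Gy replicate 3 but not in 9 Gy replicate 4. Its lowest value was in 9 Gy replicate 5, where miR-451 was at its group mean (deviations of -1.39 and 0.0068 on the log2 scale). Its r was 0.598 with miR-451 (rank 11 of 175) and 0.569 with miR-16 (rank 10). miR-25 exceeded the highest of the 7 negative controls in 7 of 14 samples, which limits these readings. The other 5 (miR-144, miR-92a, miR-363, miR-106b and miR-93) had means of 5.00 to 8.71 counts. miR-144, encoded beside miR-451, had 3 to 12 counts and was above the 7 negative controls in 1 of 14 samples. Its relation to miR-451 could not be read at this depth.

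Among the other miRNAs with the seed AGCAGCA, only miR-15b was tested. It had 21, 18, 29 and 12 counts in sham, 10, 15, 15, 22 and 12 counts at 2 Gy, and 19, 25, 23, 23 and 16 counts at 9 Gy, and its groups overlapped. Its r was 0.173 with miR-16 (rank 60), 0.139 with miR-451 (rank 67) and 0.468 with miR-15a (rank 15). miR-15b lies beside Mir16-2 as miR-15a lies beside Mir16-1, and they ranked 60 and 124 in likeness to miR-16. The means of miR-195, miR-322 and miR-497 were 7.57, 8.29 and 4.57 counts, so they were not tested.

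**Figure D4:**
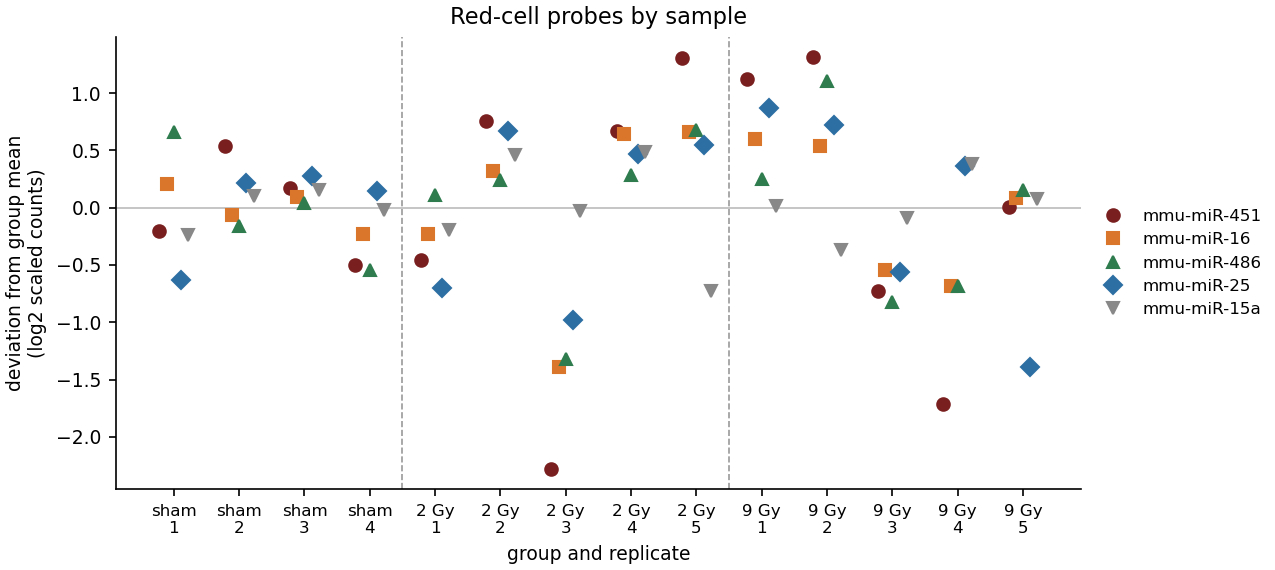
Deviation from the group mean in log2 scaled counts (y axis) of miR-451, miR-16, miR-486, miR-25 and miR-15a in each of the 14 samples (x axis), with dashed lines between groups. In 2 Gy replicate 3, miR-451 (-2.28), miR-16 (-1.39) and miR-486 (-1.32) were low together, while miR-15a (-0.03) was at its group mean.

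The comparison of 2 Gy with sham asked whether the red-cell and miR-15a/16 probes differed after the lower dose. The threshold was an adjusted p of 0.05, and both doses were set against the same 4 sham samples. By edgeR's quasi-likelihood test over the 176 probes, miR-16 rose relative to the panel, by a log2 difference of 1.81 ± 0.40 (SE, adjusted p 0.00459), as did miR-15a, by 0.85 ± 0.28 (adjusted p 0.0306), and both signs turned when counts were scaled to the ligation controls (log2 -1.22 and -2.20). With a sham mean of 8.0 counts, miR-15a passed the filter of 10 only through the irradiated groups, so its call is not separate from that filter. Both differences include background, since no sham sample of miR-15a and 2 of the 4 of miR-16 exceeded the 7 negative controls. A further fit subtracted the median negative control, set values under 1 to 1 and used a common dispersion (spread estimate) for all probes. There miR-16 had 2.75 (edgeR adjusted p 0.00113) and miR-15a 2.51 (adjusted p 0.0147). Every sham value of miR-15a was then 1, so the chosen floor set its size and p-value. The size of either difference is therefore not that of the miRNA itself. miR-451 had a log2 difference of 1.57 ± 0.71 (edgeR adjusted p 0.244), with an unadjusted edgeR p of 0.0485. So 2 of the 3 probes were called higher, where 13.1% of all tested probes were, and all 3 had an unadjusted p under 0.05, where 19.9% of tested probes did in either direction. No member had counts that lay wholly above sham, against 9.66% of tested probes. The exact permutation test of log2 scaled counts, two-sided, gave p 0.0159 for miR-16, 0.0317 for miR-15a and 0.135 for miR-451, where 0.00794 is the smallest p possible. The mean scaled count of miR-451, which exceeded the 7 negative controls in all 4 sham samples, was 3.00 times that of sham, but scaled to the ligation controls its log2 difference turned to -1.59 (edgeR adjusted p 0.0694). With total count scaling the log2 difference shrank to 0.83 for miR-451 (edgeR adjusted p 0.310) and to 1.08 for miR-16 (adjusted p 0.000931).

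The call for miR-16 held in all 14 fits that left out 1 sample. That for miR-15a was lost without 2 Gy replicate 2 (edgeR adjusted p 0.122), 2 Gy replicate 4 (0.141), sham replicate 1 (0.115), sham replicate 2 (0.0531) or sham replicate 4 (0.0556). With the log2 ligation controls as a covariate neither passed (edgeR adjusted p 0.914 for each), in a fit that extrapolates over ligation levels the groups do not share. The call for miR-15a was also lost with no filter and a common dispersion (edgeR adjusted p 0.138), a fit that changed both settings at once. DESeq2 size factors (0.0709), total counts (0.674), the 100 highest probes (0.262), limma-voom (0.187) and DESeq2 (0.251) lost it too. A scaling moves all probes of a sample alike, so distances from the panel's median hardly change with it by construction and say nothing of the ligation difference. Scaled to the ligation controls, the median of all tested probes was -3.01, and miR-16, miR-15a and miR-451 lay 1.79, 0.82 and 1.42 above it, against 1.76, 0.80 and 1.52 with the scaling used.

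After 9 Gy, miR-15a rose against sham, with a log2 difference of 0.87 ± 0.26 (SE, edgeR adjusted p 0.0167), and this sign turned when scaled to the ligation controls (log2 -2.04) or to total counts (log2 -0.16). As at 2 Gy, miR-15a was tested only because its irradiated counts carried it past the filter, so the call is not separate from that filter. With the median negative control subtracted as at 2 Gy, the difference of miR-15a was 2.87 (edgeR adjusted p 0.00233). Every sham value was then the floor of 1, which set this size and p-value, so the size is again not that of the miRNA itself. miR-16 had a log2 difference of 1.17 ± 0.40 (edgeR adjusted p 0.0619, unadjusted 0.0113), which was 2.05 after that subtraction (adjusted p 0.0108) and turned to -1.74 with the ligation controls as the scale (adjusted p 2.47e-05). It passed with the hybridisation controls as the scale (edgeR adjusted p 0.0197), TMM over the tested probes (0.00799), a mean of at least 30 counts (0.00454) and the 2 groups fitted alone (2.8e-05). It did not pass with total counts (log2 0.16, edgeR adjusted p 0.592) or the 100 highest probes (log2 0.68, adjusted p 0.119). Nor did it with no filter (adjusted p 0.0549), DESeq2 size factors (0.0915), limma-voom (0.190), DESeq2 (0.0503) or the ligation covariate (0.943). miR-451 had a log2 difference of 0.36 ± 0.71 (edgeR adjusted p 0.856). Hence 1 of the 3 was called higher, where 15.9% of all tested probes were. The counts of miR-16 and miR-15a lay wholly above sham, as they did for 15.3% of tested probes. The exact permutation test gave p 0.0238 for miR-16, 0.968 for miR-451 and 0.00794, the smallest possible, for miR-15a. The mean scaled count of miR-451 was 1.29 times that of sham, a direction that turned with total counts (log2 -0.62), the 100 highest probes (log2 -0.13) and the ligation controls (log2 -2.72, edgeR adjusted p 0.00679).

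Single samples and settings decided some of these calls. miR-15a failed without 9 Gy replicate 4 (edgeR adjusted p 0.0631) or sham replicate 1 (0.0826). It also failed with no filter and a common dispersion (adjusted p 0.0899), the 100 highest probes (0.255), limma-voom (0.117) and the ligation covariate (0.850). miR-16 passed without 2 Gy replicate 3 (edgeR adjusted p 0.000181), 2 Gy replicate 4 (0.0306), or 2 Gy replicate 5 (0.0382), and likewise without 9 Gy replicate 3 (0.0202) or replicate 4 (0.0164), the 2 Gy samples entering through the shared estimate of spread. The log2 difference of miR-451 was -0.011 without 9 Gy replicate 2. Relative to the median of all tested probes (0.01), miR-16 lay 1.17 higher and miR-15a 0.86 higher, and with the ligation controls as the scale these were 1.18 and 0.88 above a median of -2.92.

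Between the doses the ligation controls overlapped. miR-451 had a log2 difference of -1.22 ± 0.65 for 9 Gy against 2 Gy (SE, edgeR adjusted p 0.538), miR-16 one of -0.64 ± 0.34 (adjusted p 0.538) and miR-15a one of 0.01 ± 0.22 (adjusted p 0.972). None of the 3 was called, and neither was any other probe (0%), and none had counts wholly above those of 2 Gy, against 5.68% of tested probes. In this fit none had an unadjusted p under 0.05, nor by limma-voom, while miR-451 had one of 0.0497 by DESeq2 (adjusted 0.577). Other edgeR settings gave miR-16 unadjusted p-values under 0.05, among them no filter with a common dispersion (0.0305) and total counts (0.000108). The fitted difference of miR-451 was the lowest of the 176 probes and that of miR-16 the third lowest, with 11.4% of all tested probes at an unadjusted p under 0.05. The exact permutation test gave p 0.190, 0.238 and 0.905 for miR-451, miR-16 and miR-15a. With total count scaling the difference of miR-16 passed, at -0.92 (edgeR adjusted p 0.00636). All groups in these comparisons overlapped in counts, so a dose difference in miR-451 of the size fitted was within the spread between samples.

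**Figure D5:**
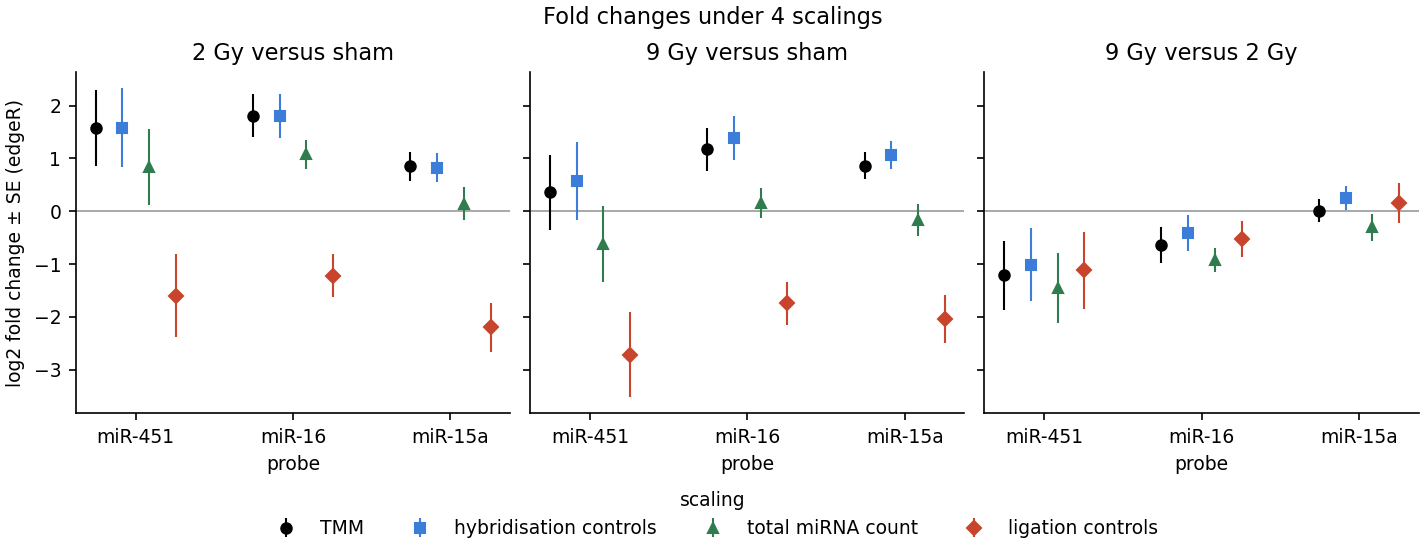
Log2 fold changes with standard errors from edgeR for each member and comparison under 4 scalings (TMM, hybridisation controls, total miRNA count, ligation controls). Against sham, scaling to the ligation controls puts all 3 members below 0 (-1.22 to -2.72), as total count scaling does for miR-451 (-0.62) and miR-15a (-0.16) at 9 Gy, whereas between the doses the 4 scalings keep miR-451 and miR-16 below 0.

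Of the lists fixed for comparison, neither tested probe of the other red-cell miRNAs passed in any comparison. Their log2 differences at 2 Gy were 0.47 ± 0.37 for miR-486 and 0.46 ± 0.44 for miR-25 (SE), with a median of 0.46 against 0.05 over all tested probes. At 9 Gy they were 0.05 ± 0.37 and 0.03 ± 0.45, with a list median of 0.04 against 0.01. miR-15b, of the miR-16 seed family, had -0.28 ± 0.27 and -0.10 ± 0.26 (edgeR adjusted p 0.684 and 0.910). Across the red-cell markers miR-451, miR-144 and miR-486, summed counts ran from 34 to 85 in sham, 29 to 284 at 2 Gy and 27 to 168 at 9 Gy. This sum was mostly miR-451, since miR-486 exceeded the 7 negative controls in 5 of 14 samples and miR-144 in 1, so it adds little to the member itself.

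Markers of other sources that plasma EVs could hold were read beside these values. The 5 platelet miRNAs summed to 21 to 38 counts in sham, 18 to 48 at 2 Gy and 28 to 49 at 9 Gy, and their tested member miR-223, which neutrophils also carry, had a log2 difference of 0.68 ± 0.32 at 2 Gy (edgeR adjusted p 0.201). miR-223 ranked 4 of 175 in likeness to both miR-451 (r 0.789) and miR-16 (r 0.791). The 6 white-cell miRNAs summed to 875 to 1069, 522 to 676 and 596 to 1029 counts, mostly miR-142-5p, which fell by 0.63 at 2 Gy and by 0.77 at 9 Gy on the log2 scale (edgeR adjusted p 3.35e-08 and 8.34e-11). miR-142-5p had an r of -0.178 with miR-451 and -0.278 with miR-16. Of the 4 tested white-cell miRNAs, 1 was called lower at each dose (miR-142-5p), where 1.7% of all tested probes were at 2 Gy and 1.14% at 9 Gy, and 1 was called higher at 9 Gy (miR-155, edgeR adjusted p 0.0474), where 15.9% of all tested probes were. miR-155 read 1, the lowest value of the table, in all sham and 2 Gy samples, and at 9 Gy its counts lay between 1 and 307 with a median of 14. It thus passed the filter only through the 9 Gy group, and its call is not separate from that filter. The liver miRNAs miR-122 and miR-192 summed to 2 to 14 counts in all samples. The part of other cells in the values of miR-451 and miR-16 was not tested.

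The ratio of miR-16 to miR-451 in a sample needs no scaling, and it was added after the values were seen. Its median was 0.322 in sham (0.197 to 0.396), 0.403 at 2 Gy (0.262 to 0.762) and 0.667 at 9 Gy (0.370 to 1.29), the last in 9 Gy replicate 4. Its log2 difference from sham was 0.46 at 2 Gy (exact permutation p 0.254) and 1.08 at 9 Gy (exact permutation p 0.0476), and between the doses it was 0.62 (exact permutation p 0.183). Over the 6 tests of ratios no difference passed after adjustment, and at 9 Gy the adjusted exact permutation p was 0.262. With the median negative control subtracted the 2 Gy difference was 1.31 (exact permutation p 0.0317, adjusted 0.0952) and the 9 Gy difference 2.04 (exact permutation p 0.00794, the smallest possible, adjusted 0.0476), and few counts of miR-16 then remained in sham. In each irradiated group the ratio was highest where miR-451, its denominator, was lowest (2 Gy replicate 3 and 9 Gy replicate 4). A low denominator raises a ratio by construction.

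The ratio of miR-451 to miR-23a is used as an index of haemolysis in plasma. Its median was 8.22 in sham, 15.2 at 2 Gy and 7.0 at 9 Gy, and its exact permutation p was 0.0873 and 0.937 against sham. miR-23a had 3 to 15 counts and was above the 7 negative controls in 1 of 14 samples. The denominator was thus at background, and the ratio is not read as an index here.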

How the data were processed

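The study measured plasma EV miRNAs of 14 samples with the nCounter mouse miRNA panel v2. The deposited values were whole-number counts per probe, with control probes included. The hybridisation controls still differed between samples and the negative controls were still above 0, and whether the values had been altered in another way is not stated. For their own normalisation the authors used nSolver 4.0. Whether counts of 0 were written as 1, the lowest value, is not stated. Samples were grouped by their labels.

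TMM factors were computed over the 599 miRNA probes, and 176 probes with a mean of at least 10 counts were fitted with edgeR 4.0.16 (quasi-likelihood, robust, 3 groups in 1 fit, two-sided, Benjamini-Hochberg over 176) in R 4.3.3. The methods name nSolver for the differential expression of these counts but not the test it ran, and edgeR was chosen because it fits counts. A scaled count is a count over the sample's TMM library size, which was first divided by its geometric mean over samples. Exact permutation tests and 100000 permutations within groups used log2 scaled counts (scipy 1.17.1). Alternatives used DESeq2 1.42.0 and limma 3.58.1, other scalings and filters, and each sample left out. The edgeR fits with no filter and with the median negative control subtracted also used a common dispersion and no trend with abundance. Each of these changed more than the setting it is named by. The fits and the permutation test were tested on simulated data.

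The members and lists were chosen with earlier results of these data known. Named probes were the 3 members, the listed probes with a mean of at least 10 counts, and the 3 tested probes with the highest r to each member. Listed probes below that mean were to be counted only, and those given with values were named outside this rule. Replicate numbers were not treated as pairs, as 1 of 13 same-number pairs had an r over 0.1 (range -0.0895 to 0.161). No sample was counted as a repeat, since over all probes each of the 26 within-group pairs differed (largest chi-square p 0.0202). Over the tested miRNA probes alone, 20 of the 26 had a p under 0.05. Intervals cover counting error only. Sequences and positions came from RefSeq tables of GRCm38.p6.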

Additional observations from a re-analysis of the deposited data

How the results depend on the processing

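The covariation of miR-451 and miR-16 kept its sign and passed under all 9 alternatives, with r from 0.817 (samples pooled with group means kept) to 0.973, and from 0.913 to 0.967 with 1 sample left out. Log2 differences from sham turned with the ligation controls as the scale. At 2 Gy they were -1.59 (edgeR adjusted p 0.0694) for miR-451, -1.22 (0.00281) for miR-16 and -2.20 (2.77e-06) for miR-15a, and at 9 Gy -2.72 (0.00679), -1.74 (2.47e-05) and -2.04 (1.01e-05). The median of all tested probes then moved to -3.01 and -2.92, and with total counts to -0.66 and -1.02. With the ligation covariate miR-16 at 2 Gy (1.52), miR-15a at 2 Gy (0.89) and miR-15a at 9 Gy (0.91) no longer passed.

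The call of miR-15a at 2 Gy was also lost with no filter (0.86), DESeq2 size factors (0.76), total counts (0.14), the 100 highest probes (0.43), limma-voom (0.80) and DESeq2 (0.78), and at 9 Gy with no filter (0.86), the 100 highest probes (0.38) and limma-voom (0.84), while total counts gave -0.16. miR-451 at 9 Gy turned with total counts (-0.62) and the 100 highest probes (-0.13). miR-16 at 9 Gy passed with the hybridisation controls (1.39), TMM over tested probes (1.49), a mean of at least 30 counts (1.17), the 2 groups alone (1.21), the median negative control subtracted (2.05) and the exact test (1.11, unadjusted permutation p 0.0238). It did not pass with total counts (0.16), the 100 highest probes (0.68), no filter (1.17), DESeq2 size factors (1.05), limma-voom (1.05), DESeq2 (1.07) or the ligation covariate (0.86). Its adjusted p over all its alternatives lay between 2.47e-05, where the sign had turned with the ligation controls as the scale, and 0.943. Between the doses miR-16 passed with total counts (-0.92), and miR-15a turned with DESeq2 size factors (-0.0093), DESeq2 (-0.019), the 100 highest probes (-0.049) and total counts (-0.31). The causes were not tested.

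Replicate numbers did not pair the samples. With the replicate number as a block, miR-16 at 9 Gy passed (1.06, edgeR adjusted p 0.00292), and no other difference changed its call. Under the block r was 0.970 for miR-451 and miR-16, 0.0105 for miR-16 and miR-15a, -0.0340 for miR-451 and the ligation controls and 0.518 for miR-15a and the ligation controls.

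Weak correlations changed sign, except that of miR-16 with the ligation controls. With group means kept, r was 0.0403 for miR-451 and miR-15a, 0.479 for miR-16 and miR-15a, and 0.715 for miR-15a with the ligation controls. That of miR-16 with the ligation controls kept its sign and was 0.697 (permutation test, adjusted p 0.00896 for this value and for 0.715). miR-16 and miR-15a had 0.0707 with the hybridisation controls as the scale. miR-451 and the ligation controls had rho -0.0374, and -0.0125 without the 2 farthest samples. miR-15a and the ligation controls had rho 0.125, then 0.306 (unscaled), 0.214 (hybridisation scale), 0.188 (irradiated samples) and 0.163 (without the 2 farthest samples). With background subtracted r was 0.00932, the sham values of miR-15a all being at the floor. Background subtraction moved the within-group SD of miR-16 to 0.95 (log2), and the log2 difference in the ratio of miR-16 to miR-451 at 9 Gy to 2.04. The SD of miR-15a became 0.93, with every sham value at the floor of 1.

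Leaving out 1 sample gave 1.23 to 1.85 (miR-451), 1.65 to 2.03 (miR-16) and 0.73 to 1.00 (miR-15a) at 2 Gy, -0.011 to 0.61, 1.02 to 1.32 and 0.76 to 0.95 at 9 Gy, and -1.59 to -0.87, -0.85 to -0.48 and -0.13 to 0.14 between the doses. For r it gave -0.367 to 0.0411 (miR-451 and miR-15a), -0.367 to 0.129 (miR-16 and miR-15a), and -0.0882 to 0.108, 0.121 to 0.245 and -0.181 to 0.191 for the 3 with the ligation controls. For the log2 ratio of miR-16 to miR-451 it gave 0.24 to 0.62, 0.82 to 1.28 and 0.36 to 0.84, for that of miR-451 to miR-23a 0.57 to 1.17, -0.59 to 0.46 and -1.49 to -0.45, and for the SD 0.93 to 1.23, 0.45 to 0.67 and 0.27 to 0.37.

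miR-15a lies below a mean of 30 counts and has no value there, and DESeq2 gave it no adjusted p at 9 Gy. With the median negative control subtracted, the 2 Gy difference of miR-16 kept its call and grew to 2.75. Those of miR-15a, 2.51 at 2 Gy and 2.87 at 9 Gy, were set by the floor of 1, which every sham value then took. Depth limits what miR-15a, miR-486, miR-25, miR-144 and miR-23a can show, as many of their values lay at background.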
